A study of Mus musculus with 2 samples.

Results

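The histone genes of the mouse ovary at postnatal day 2 were followed across its main cell types and between cells with and without transcripts of Mki67 or Top2a, which proliferating cells express. They were taken by symbol, as every gene whose name begins with Hist1h to Hist4h, H1f, H2af or H3f, which gave 83 of the 31057 genes in the deposited tables. The data are 2 single-cell libraries of whole ovaries of untreated CD1 mice, each made from 6 ovaries pooled from 3 pups of 1 female. The libraries are the replicates (n = 2), and the cells inside a library share its pups and its droplet run.

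Histones are the proteins around which nuclear DNA is wound. H2A, H2B, H3 and H4 form the core of the nucleosome, and H1 is the linker that binds where DNA enters and leaves it. The replicative genes, most of them packed into clusters, supply new nucleosomes during S phase, and their mRNAs normally end in a conserved stem-loop instead of a poly(A) tail. The variants, such as H3.3, H2A.Z and macroH2A, are made through the cell cycle from genes outside these clusters with ordinary polyadenylated mRNAs, and H2A.X can be made from either kind of mRNA. The oocyte has its own linker, H1foo, which takes the place of the somatic linkers during oocyte growth.

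The libraries were built from polyadenylated RNA and count each captured molecule once at its 3′ end as a unique molecular identifier (UMI). A count of a replicative histone gene therefore covers the copies that carried a poly(A) tail or were primed inside the transcript, and not all of its mRNA. This limit differs from gene to gene, so counts are compared between cells for the same gene, and between genes only as shares of the UMIs captured. Of the 83 genes, 78 had a UMI in the kept cells and 42 had at least 100. The genes without any UMI were Hist1h2bq and 4 forms known from testis (H1fnt, H2afb1, H2afb2 and H2afb3). The 2 genes of H3.3 held 61.2% of the 730534 histone UMIs, the 6 H2A variants 28.1%, the replication-independent linkers H1f0 and H1fx 5.88%, the 64 replicative genes 3.76% and H1foo 1.09%. Among the replicative genes, Hist1h1c, Hist3h2a and Hist1h2ap together held 52.6% of the 27452 UMIs.

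The stem-loop that ends the replicative mRNAs is shown for the 4 replicative genes with the most UMIs among those with a match, and for the H2A variant H2afx, which carries one as well. The capitals mark the loop between the arms of the stem, read 5′ to 3′ from the annotated transcripts of GENCODE M21 (GRCm38).
Hist1h1c: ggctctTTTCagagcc
Hist3h2a: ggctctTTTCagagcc
Hist1h2ap: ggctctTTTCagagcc
Hist1h4i: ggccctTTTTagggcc
H2afx: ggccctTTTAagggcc
The letters searched on the sense strand were GGCNCT for the first arm, TTTN for the loop and AGNGCC for the second arm, without gaps. They were found in 41 of the 64 replicative genes and in 45 of 21901 protein-coding genes of the annotation (0.205%). Among the 12 histone genes that are neither replicative nor testis forms, H2afx was the one with a match.

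Annotated transcripts of 20 replicative genes run on for over 100 bases after the stem-loop, a stretch in which a poly(A) site can lie. Of these 20 genes, 15 had at least 100 UMIs, the median was 190 UMIs, and they held 62.3% of the replicative UMIs. Much of that share came from Hist1h1c (6850 UMIs) and Hist3h2a (4147 UMIs). Of the 21 genes with a stem-loop within 100 bases of the annotated end, 10 had at least 100 UMIs, the median was 63, and they held 19.7%. Why the groups differ was not tested. The highest among these 21 genes was Hist1h2ap, an H2A gene annotated to end 3 bases after the loop, with 3446 UMIs. The 23 replicative genes without a match had a median of 49 UMIs, and Hist1h2bc among them had 2420. Every 50-base word in the last 300 bases of Hist1h2ap also occurs in other genes, most of them H2A genes, so its count cannot be told apart from theirs with certainty. In all, 33 of the 64 replicative genes shared over 50% of their words in this way, and their median was 47 UMIs against 162 in the others. Hist1h1e overlaps Hist1h2be on the same strand, and Hist3h2a overlaps Trim17, so these counts are uncertain too.

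**Figure D1:**
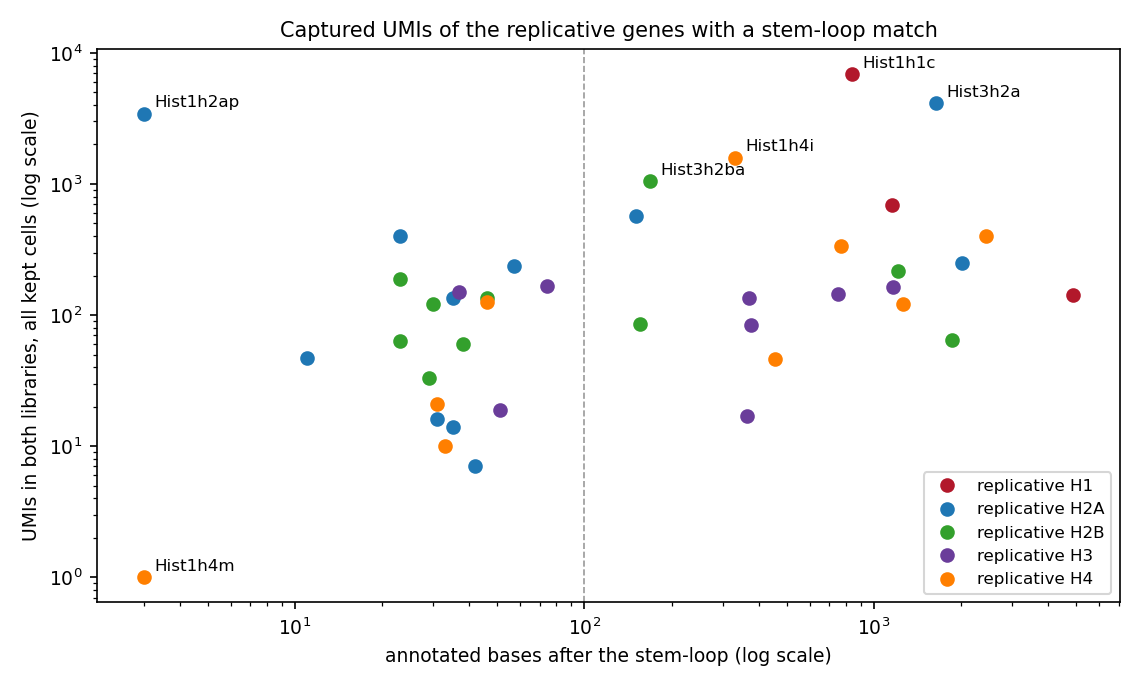
Each point is a replicative histone gene with a stem-loop match. The x axis gives the annotated bases after the loop and the y axis the UMIs in the kept cells of both libraries, both on log scales, with a dashed line at 100 bases. Hist1h1c and Hist3h2a lie right of the line, and Hist1h2ap, with 3446 UMIs, lies far above the other genes left of it.

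The replicative genes lie on chromosome 13 (51 genes, between positions 21715763 and 23764406), chromosome 3 (10 genes), chromosome 11 (2 genes) and chromosome 6 (1 gene) of GRCm38. Their promoters were searched on both strands in RefSeq windows of GRCm38.p6, from 250 bases before to 50 bases after each start. CCAAT was found in 51 of 60 replicative windows (85%), against 37.4% of all 32851 windows. All windows of H1, H2A, H2B and H3 genes held it, and 3 of 12 windows of H4 genes did. The octamer ATTTGCAT was found in 6 of 17 windows of H2A genes and 6 of 16 of H2B genes, in 0 windows of the H1, H3 and H4 genes, and in 1.74% of all windows. TATAAA was found in 55% of the replicative windows and 13.6% of all windows. Many H2A and H2B genes lie head to head, and windows of such pairs can overlap.

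Cells were assigned to types by marker genes. The assignment gave 229 and 620 germ cells (Ddx4, Dazl, Ooep) in replicates 1 and 2, 1588 and 509 granulosa cells (Foxl2, Fst, Wnt6), 1430 and 2543 interstitial cells (Col1a2, Dcn) and 157 and 223 mesothelial cells of the ovarian surface (Upk3b), while 221 and 437 cells carried several or no marker lists. Second marker lists were highest in the matching type in both libraries, with exceptions inside the lists. The granulosa markers Amhr2 and Kitl were also present in the mesothelial cells (408 and 416 CPM, and 118 and 84.0 CPM, where CPM is a gene's UMIs scaled to the same total in every cell type and library), and Foxl2 was present in the interstitial cells (97.7 and 150 CPM). Kitl was at 97.6 and 84.9 CPM in granulosa cells, below mesothelial cells in replicate 1. Wnt6, used to assign granulosa cells, did not separate them (399 and 396 CPM) from mesothelial cells (409 and 396 CPM). Foxl2 (21.1 and 15.3 CPM) and Fst (42.2 and 46.3 CPM) were lower in mesothelial than in granulosa cells. Erythroid RNA differed between the libraries, since its 4 markers summed to 136 and 958 CPM in granulosa cells and to 29.7 and 1408 CPM in interstitial cells. Perivascular markers summed to 717 and 294 CPM in interstitial cells, and endothelial markers to 177 and 129 CPM in mesothelial cells, nearly all of it Kdr. The part of these cells and of this RNA in the values below was not tested. Germ cells were by far the deepest (median of 77518 and 50787 UMIs), followed by mesothelial (14094 and 11777), granulosa (9894.5 and 9869) and interstitial cells (6482.5 and 4988). The libraries shared 21 cell barcodes, 19 of them in kept cells.

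The first question was how the histone genes differ between the cell types. Relative to all RNA of the cell type, the 83 genes together made up 3695 and 3807 CPM in germ cells, 8129 and 7394 CPM in granulosa cells, 10129 and 9997 CPM in interstitial cells and 8828 and 9116 CPM in mesothelial cells. Both germ values lie below every somatic value. Counted per cell and without scaling, the order is another one, because a germ cell yielded several times more UMIs than a somatic cell. The 83 genes gave 264 and 161 UMIs per germ cell, 97.0 and 96.4 per granulosa cell, 73.9 and 63.2 per interstitial cell and 157 and 149 per mesothelial cell. CPM differences between germ and somatic cells below are therefore differences in the share of RNA, and not in molecules per cell.

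**Figure D2:**
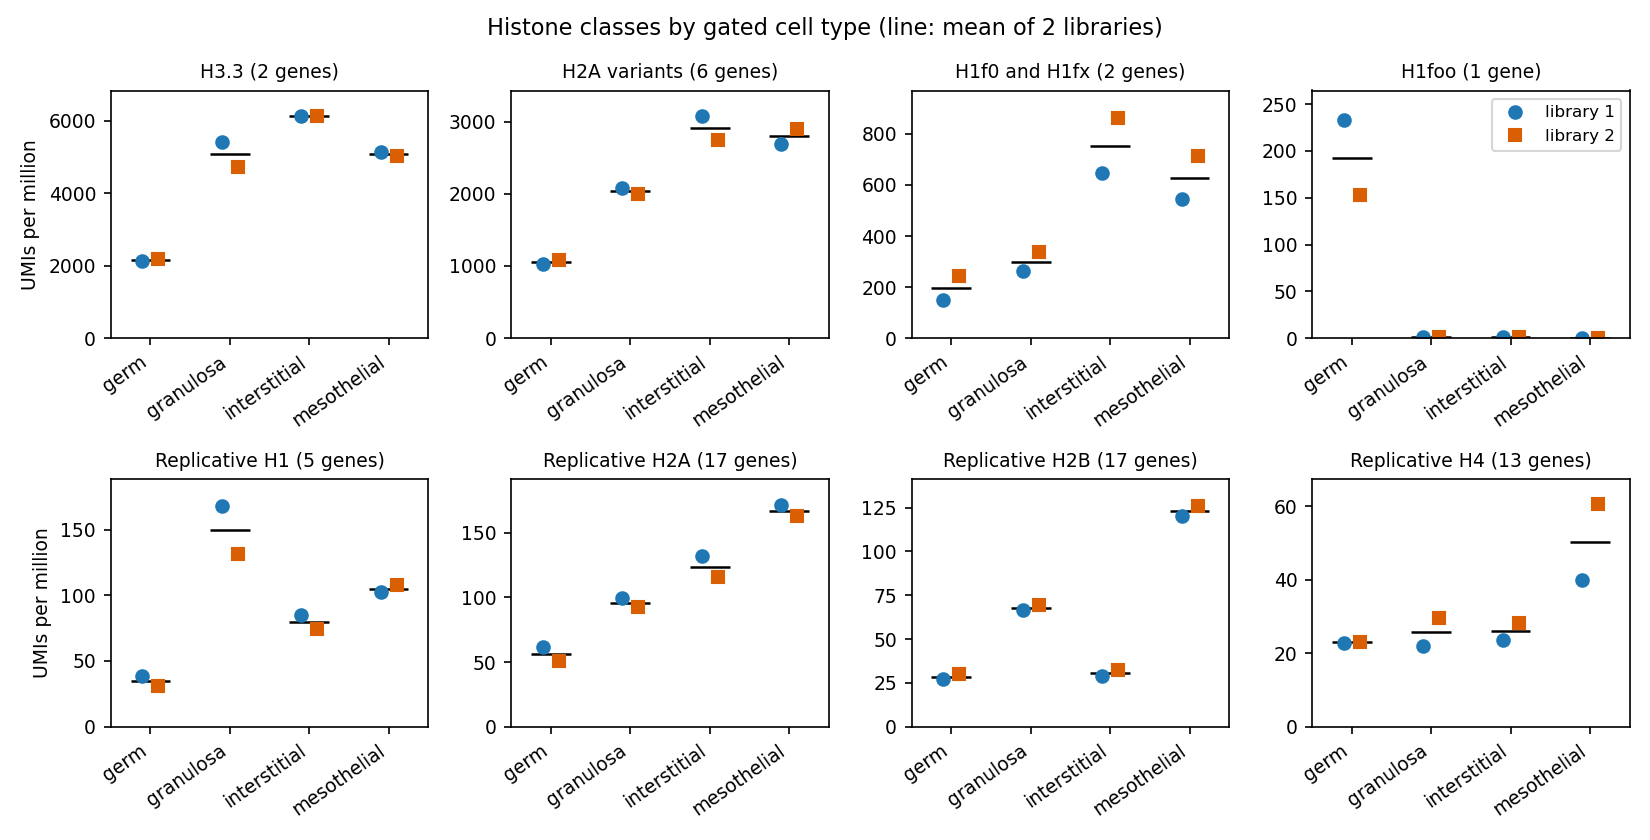
Summed CPM of 8 histone classes in the 4 cell types, with a point for each library and a line at their mean. H3.3 and the H2A variants are lowest in germ cells in both libraries, H1foo is at 233 and 152 CPM in germ cells and at most 1.42 CPM elsewhere, and the replicative H2B genes are highest in mesothelial cells.

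For the test, the UMIs of each cell type were added up within a library, and edgeR's quasi-likelihood model was fitted over all genes, with Benjamini-Hochberg adjustment. A gene was called when its adjusted p was under 0.05 and its difference over 2-fold. Of the 83 histone genes, 57 passed the filter on low counts, and the other 26 were not tested. Against the mean of the 3 somatic types, 2 genes were higher and 38 lower in germ cells. Over all 15404 genes tested, 31% were higher and 27.7% lower. The median log2 difference was -1.54 over the 57 histone genes and 0.09 over all genes. Genes scarce in germ cells could pass the filter through somatic cells alone, so the filter partly sets the lower count and this median. All 5 replicative H1 genes were called lower, as were 6 of 12 tested H2A, 10 of 13 H2B, 7 of 9 H3 and 3 of 7 H4 genes, both H3.3 genes, 4 of 6 H2A variants and 1 of 2 replication-independent linkers.

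Fewer histone genes were called, and fewer were tested, when somatic cells with a UMI of Mki67 or Top2a were left out. Such a UMI is found more often in deeper cells, so the cells that remain can include proliferating ones. When only somatic cells without a UMI of Mki67 or Top2a were compared with the germ cells, 5 histone genes were called higher and 16 lower of the 41 then tested, and all 16 had been among the 38. Over all genes of that fit, 31.8% were higher and 26.2% lower. Some of the 38 were not tested in it, among them Hist1h1a, Hist1h2ai, Hist1h2be, Hist1h2bb, Hist1h3g, Hist1h2bm, Hist1h2bl and Hist1h3h. The smaller count therefore mixes genes no longer tested with genes no longer called. H2afx (log2 difference 0.27, adjusted p = 0.127, edgeR) and Hist1h1e (0.57, adjusted p = 0.163, edgeR) turned from lower to values above 0 that did not pass the test.

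H1foo (chr6:115944938-115950236, plus strand), the linker of the oocyte, stood at 233 and 152 CPM in the germ cells of replicates 1 and 2. It was at 1.42 and 1.21 CPM in granulosa cells, at 1.34 and 1.12 CPM in interstitial cells and at 0 UMIs in mesothelial cells of both libraries. The germ values were 126-fold to 164-fold above granulosa cells and at least 186-fold above the floor of 3 UMIs in mesothelial cells. The fitted log2 difference from the mean of the somatic types was 9.61 ± 0.22 (SE, adjusted p = 3.88e-08, edgeR). Both this difference and its SE depend on how the 0 is treated. H1foo had a UMI in 87.8% and 69.7% of germ cells, against 1.57% and 1.38% of granulosa cells. With every cell thinned to 2000 UMIs, the shares were 26.6% and 18.1% of germ cells against 0.315% and 0.198% of granulosa cells. None of 157 and 223 mesothelial cells had a UMI, which by the floor of 3 cells allows shares of cells with a UMI of up to 1.91% and 1.35% and sets no limit on expression. The traces in granulosa and interstitial cells were 0.576% to 0.791% of the germ level, inside the range of 0.195% to 1.19% that 5 other germ cell genes (Ooep, Dppa3, Zp3, Padi6 and Sycp3) showed in somatic cells. Between mesothelial and granulosa cells H1foo was called lower (adjusted p = 0.0155, edgeR), but the counts themselves bound the ratio only at 1.33-fold.

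Within the germ cells, H1foo was higher in those with Zp3, which encodes a protein of the zona pellucida. In germ cells with a Zp3 UMI after thinning (161 and 328 cells), H1foo was at 259 and 189 CPM, and in those without (61 and 224 cells) it was at 141 and 92.5 CPM. Hist1h1c was at 40.9 and 30.8 CPM against 12.7 and 16.1, and Hist1h2bc at 15.2 and 18.4 CPM against 2.26 and 6.37, so that both libraries agree on the direction for all 3 genes. H2afz, at 261 and 242 CPM against 257 and 273, and H3f3a, at 595 and 596 CPM against 572 and 569, were close in both groups. H3f3b was lower with Zp3 in both libraries, at 1467 and 1532 CPM against 1804 and 1723, and so was H2afv, at 164 and 200.4 CPM against 193 and 248.6. H2afx, at 69.6 and 78.8 against 80.3 and 86.0 CPM, and H2afy, at 411 and 385 against 448 and 409 CPM, lay slightly lower. These are descriptions without a test, and the median depth of the cells with Zp3 was higher (84089 and 60164.5 UMIs against 62307 and 50539).

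The promoter of H1foo (H1f8 in RefSeq) is shown as the oocyte-restricted member, in the 250 bases before its start, chr6:115944681-115944930 on the plus strand of GRCm38.p6. Capitals mark CCAAT on either strand.
H1foo: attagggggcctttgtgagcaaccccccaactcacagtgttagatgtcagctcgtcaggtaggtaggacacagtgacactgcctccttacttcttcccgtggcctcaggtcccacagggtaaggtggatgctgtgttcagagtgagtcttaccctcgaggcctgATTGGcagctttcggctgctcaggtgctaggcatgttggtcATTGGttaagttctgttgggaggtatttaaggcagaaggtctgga
It held CCAAT on the reverse strand, as ATTGG, and neither the octamer nor TATAAA.

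The other replication-independent linkers parted ways. H1f0, the linker that builds up in cells leaving the cell cycle, was at 52.9 and 65.6 CPM in germ cells, 202 and 232 in granulosa, 512 and 601 in interstitial and 420 and 443 in mesothelial cells. The types did not overlap, and the germ level lay below the somatic mean by -2.59 ± 0.17 (log2 difference ± SE, adjusted p = 2.12e-06, edgeR). Interstitial cells exceeded granulosa cells by 1.42 ± 0.18 (adjusted p = 0.000481, edgeR), a difference also called in cells without Mki67 or Top2a (1.29, adjusted p = 0.00113, edgeR). H1fx was at 95.7 and 176 CPM in germ cells, at 60.7 and 105 in granulosa, at 134 and 262 in interstitial and at 126 and 270 in mesothelial cells. Replicate 2 was higher in every type, and H1fx was not called between any types in the fit without a block (germ against somatic -0.04 ± 0.39, adjusted p = 0.947, edgeR). With the library as a block, it was called higher in interstitial (1.29, adjusted p = 0.000128, edgeR) and in mesothelial than in granulosa cells (1.28, adjusted p = 0.000506, edgeR), and DESeq2 called both without a block.

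H3.3 is encoded by H3f3a and H3f3b, which give the same protein from different transcripts. H3f3b was the most captured histone mRNA, at 1540 and 1605 CPM in germ cells, 4279 and 3604 in granulosa, 4316 and 4436 in interstitial and 3339 and 3285 in mesothelial cells. H3f3a was at 590 and 587 CPM in germ cells and at 1136 and 1122, 1807 and 1694, and 1788 and 1736 CPM in the same somatic types. Both were lower in germ cells than in the somatic mean, by -1.23 ± 0.11 and -1.31 ± 0.11 (log2 difference ± SE, adjusted p = 1.25e-05 and 6.15e-06, edgeR), and kept their call against somatic cells without Mki67 or Top2a. Per cell, H3.3 UMIs ran the other way, at 152 and 92.9 in germ cells against 64.6 and 61.6 in granulosa and 44.6 and 38.7 in interstitial cells. Mesothelial cells, at 91.4 and 82.3, came close to the germ cells of replicate 2. Between the somatic types neither gene passed 2-fold.

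The H2A variants each had a profile of their own. H2afz, which encodes H2A.Z, was at 260 and 254 CPM in germ cells and between 1050 and 1741 CPM in the somatic types (-2.34 ± 0.13, adjusted p = 6.93e-07, edgeR). H2afy2, which encodes macroH2A2, was at 11 and 11.6 CPM in germ cells, 73.7 and 73.0 in granulosa, 169 and 148 in interstitial and 86.5 and 81.8 in mesothelial cells. It was lower in germ cells (-3.07 ± 0.14, adjusted p = 2.64e-07, edgeR) and higher in interstitial than in granulosa cells (1.18 ± 0.14, adjusted p = 0.000319, edgeR), with and without the somatic cells that had a UMI of Mki67 or Top2a. H2afy, which encodes macroH2A1, went the opposite way, at 419 and 394 CPM in germ cells and between 194 and 291 CPM in somatic cells. Its germ level was above the somatic mean by 0.86 ± 0.10 (adjusted p = 5.27e-05, edgeR), which is short of 2-fold. H2afj was lower in interstitial cells (81.0 and 76.0 CPM) than in granulosa cells (186 and 181 CPM, -1.16 ± 0.18, adjusted p = 0.00134, edgeR), while germ cells (96.4 and 121 CPM) did not differ from the somatic mean beyond the test (-0.22 ± 0.15, adjusted p = 0.204). H2afv, the second H2A.Z gene, was at 170 and 219 CPM in germ cells and between 338 and 704 CPM elsewhere (-1.31 ± 0.18, adjusted p = 0.000144, edgeR). Against somatic cells without Mki67 or Top2a, the germ difference of H2afv was -0.73 (adjusted p = 0.00531, edgeR), short of 2-fold. That of H2afz was then -1.35 (adjusted p = 3.17e-05, edgeR), smaller but still called.

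**Figure D3:**
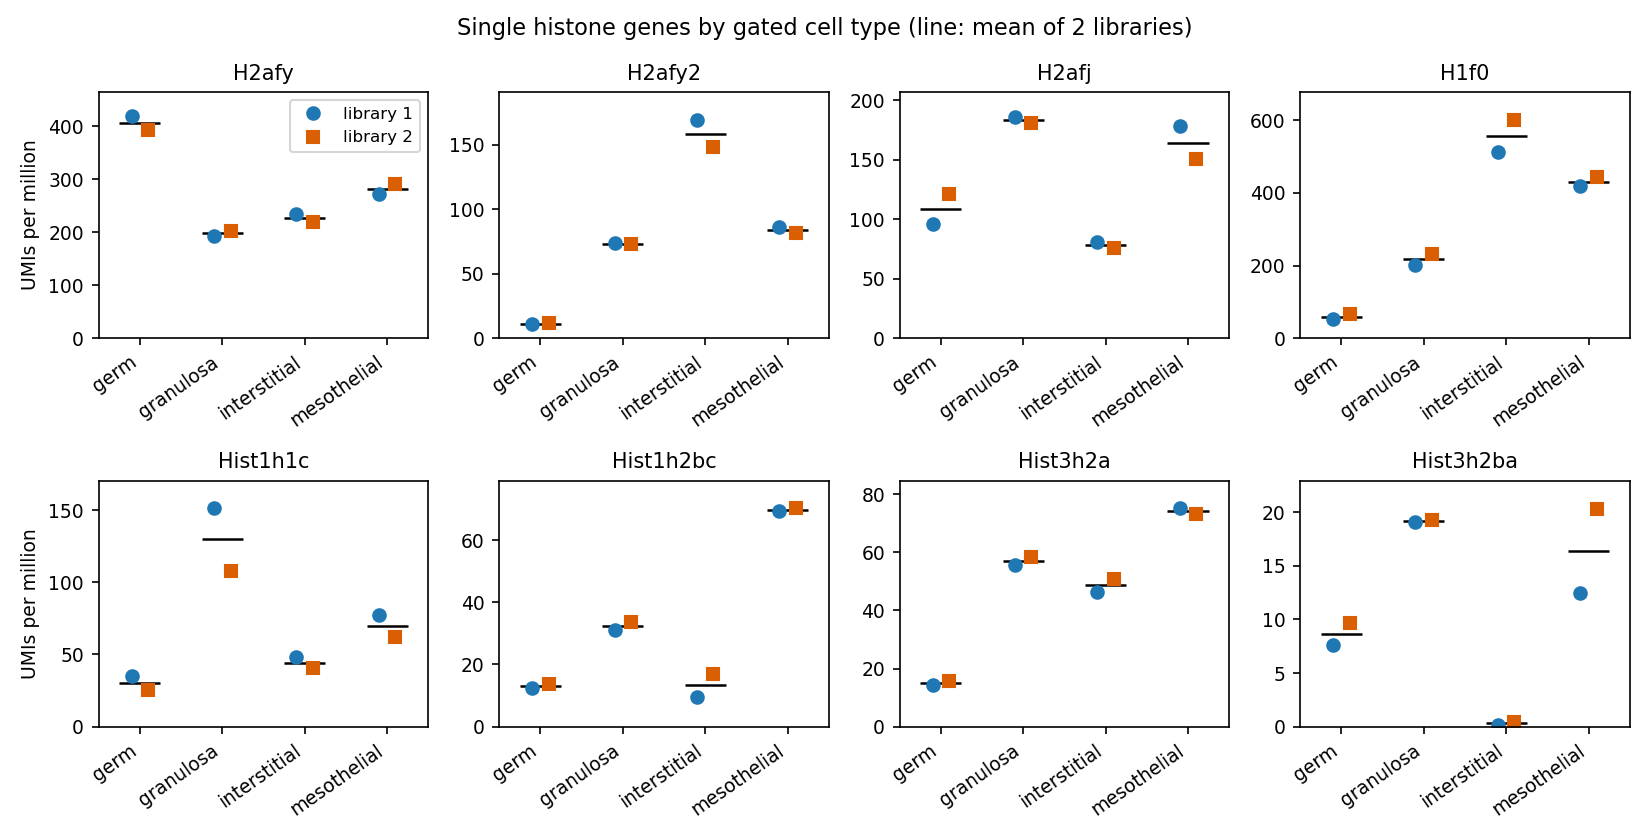
CPM of 8 histone genes in the 4 cell types, with a point for each library and a line at their mean. The genes were picked for display after their values were seen. H2afy is highest and H2afy2 lowest in germ cells, H2afj and Hist1h1c are lower in interstitial than in granulosa cells, and Hist3h2ba is at 0.192 and 0.436 CPM in interstitial cells while its neighbour Hist3h2a is at 46.4 and 50.8.

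Hist3h2ba had the largest called difference between interstitial and granulosa cells. This H2B gene on chromosome 11 (chr11:58948920-58949533, plus strand) was at 19.0 and 19.3 CPM in granulosa cells, 12.5 and 20.3 in mesothelial cells, 7.63 and 9.66 in germ cells and 0.192 and 0.436 CPM in interstitial cells. Interstitial cells had 9 UMIs of it in both libraries together and granulosa cells 489. The log2 difference was -5.73 ± 0.41 (adjusted p = 2.77e-05, edgeR), and it was -6.22 (adjusted p = 9.25e-05, edgeR) in cells without Mki67 or Top2a. The share of cells with a UMI after thinning was 2.71% and 2.97% in granulosa cells and 0.0703% and 0.121% in interstitial cells. Hist3h2a, the H2A gene that follows it on the same strand (chr11:58954685-58956830), was at 55.8 and 58.5 CPM in granulosa cells and 46.4 and 50.8 CPM in interstitial cells, and the test found no difference (-0.17 ± 0.14, adjusted p = 0.374, edgeR).

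The promoters of these neighbours are shown because the genes differ in interstitial cells. Both are the 250 bases before the start on the plus strand, chr11:58948661-58948910 for Hist3h2ba (H2bu2 in RefSeq) and chr11:58954435-58954684 for Hist3h2a (H2aw), with CCAAT, the octamer and TATAAA in capitals on either strand.
Hist3h2ba: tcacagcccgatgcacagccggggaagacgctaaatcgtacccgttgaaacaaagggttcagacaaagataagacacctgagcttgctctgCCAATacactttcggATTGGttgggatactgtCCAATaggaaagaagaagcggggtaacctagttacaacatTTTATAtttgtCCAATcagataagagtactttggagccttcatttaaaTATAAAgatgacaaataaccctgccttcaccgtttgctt
Hist3h2a: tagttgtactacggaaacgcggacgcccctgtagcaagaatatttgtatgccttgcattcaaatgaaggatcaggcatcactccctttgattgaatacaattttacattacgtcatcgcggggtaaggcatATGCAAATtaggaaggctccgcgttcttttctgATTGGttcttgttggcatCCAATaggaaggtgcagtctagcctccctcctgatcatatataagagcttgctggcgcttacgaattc
Both held CCAAT. Hist3h2ba held TATAAA and no octamer, and Hist3h2a held the octamer (reverse strand, ATGCAAAT) and no TATAAA. Only these exact letters were searched, and Hist3h2a has the similar tatataag close to its start.

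As a class, the replicative genes summed to 154 and 140 CPM in germ cells and 462 and 483 in mesothelial cells. In granulosa cells they summed to 365 and 333 CPM, and in interstitial cells to 286 and 261. These sums join unlike genes. H1 and H2B genes summed higher in granulosa than in interstitial cells. H2A genes summed lower there, at 99.4 and 92.7 against 132 and 116 CPM, and for H3 and H4 the libraries disagreed. Hist1h1c (H1.2), the replicative gene with the most UMIs, was at 34.8 and 25.2 CPM in germ cells and 152 and 108 in granulosa cells. It was at 48.0 and 40.5 CPM in interstitial and 77.5 and 62.4 in mesothelial cells. It was lower in germ cells (-1.25 ± 0.18, adjusted p = 0.000201, edgeR) and in interstitial against granulosa cells (-1.49 ± 0.21, adjusted p = 0.000661, edgeR). Hist1h2bc was at 31.2 and 33.6 CPM in granulosa, 9.69 and 16.8 in interstitial, 69.3 and 70.3 in mesothelial and 12.4 and 13.9 in germ cells. It was called lower in interstitial (-1.21 ± 0.24, adjusted p = 0.00383, edgeR) and higher in mesothelial than in granulosa cells (1.19 ± 0.24, adjusted p = 0.0091, edgeR), the latter not when cells with a UMI of Mki67 or Top2a were left out.

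The H1 gene Hist1h1b (H1.5) was at 0.244 and 0.456 CPM in germ cells, against 8.55 and 11.5 in granulosa, 19.2 and 19.5 in interstitial and 14.3 and 27.6 in mesothelial cells (-5.32 ± 0.40, adjusted p = 3.67e-06, edgeR). Hist1h2be, Hist1h3i, Hist1h2bb, Hist1h3g, Hist1h2bm, Hist1h2bg, Hist2h2be, Hist1h2bl and Hist1h3h, core histone genes, were the next furthest down, all at 0 to 0.608 CPM in germ cells. Hist1h1b and these genes passed the filter on low counts through somatic cells only. Their place among the lower genes is therefore partly set by the filter. Hist1h2bh was the second gene called higher in germ cells, at 4.82 and 3.46 CPM against 0.274 to 1.25 CPM in the somatic types (2.79 ± 0.41, adjusted p = 0.000229, edgeR). Hist1h2ap did not differ between germ cells and all somatic cells (36 and 25 CPM in germ cells, -0.22 ± 0.19, adjusted p = 0.311, edgeR). Against the mean of the somatic types without Mki67 or Top2a it was higher in germ cells (3.67, adjusted p = 1.35e-06, edgeR). So were Hist1h4i (1.28, adjusted p = 0.00174, edgeR) and Hist3h2ba (1.72, adjusted p = 0.0015, edgeR). For Hist3h2ba this mean is pulled down by interstitial cells, which lay at -6.22 (log2) from granulosa cells in that fit. Granulosa cells without Mki67 or Top2a were above germ cells for Hist3h2ba in both libraries.

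Interstitial against granulosa cells, 8 histone genes were called higher and 5 lower, beside 12.9% and 14.6% of all genes tested, and the median of the 57 was 0.45 against 0.00 over all genes. The higher ones were H1f0, H2afy2, H2afx, Hist1h1a, Hist1h1b, Hist1h2ae, Hist1h2ap and Hist1h4d, and the lower ones Hist3h2ba, Hist1h4j, Hist1h1c, Hist1h2bc and H2afj. In cells without Mki67 or Top2a, all 5 lower genes were called again, and of the higher ones H1f0 and H2afy2 were. Hist1h1a was not tested in that fit. Hist1h4i (-1.11, adjusted p = 0.0434, edgeR) and Hist2h2be (-1.83, adjusted p = 0.0149, edgeR) were then called lower too, which made 2 higher and 7 lower, beside 12% higher and 14.3% lower of all genes in that fit. Mesothelial against granulosa cells, 14 were called higher and 1 lower, beside 7.61% and 7.12% of all genes, with a median of 1.07 against -0.03. Without cells with Mki67 or Top2a, 0 of the 41 histone genes then tested were called higher, beside 5.35% of all genes. Only 1 was called lower, Hist1h1c (-1.37, adjusted p = 0.00561, edgeR), beside 5.36% of all genes. That fit had 94 and 120 mesothelial cells. Hist1h1a, Hist1h2bk and Hist1h2bm, called higher before, were not tested in it. Interstitial and mesothelial cells carried Mki67 or Top2a more often than granulosa cells, in 28.1% and 22.8% and in 40.1% and 46.2% of cells against 16.1% and 18.5%, and after thinning in 18.7% and 15.1% and in 15.9% and 24.2% against 8.20% and 8.32%. Both comparisons share the granulosa cells.

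The second question was how the histone genes differ between cells with and without a UMI of Mki67, a marker of proliferating cells, or Top2a, a topoisomerase of dividing cells. The cells with such a UMI were 402 and 579 interstitial, 255 and 94 granulosa, 63 and 103 mesothelial and 187 and 361 germ cells. They were also deeper, with median UMIs of 8732 and 7328 against 5948 and 4599 in interstitial cells and 14998 and 16019 against 9346 and 8714 in granulosa cells. Of the 83 genes, 47 passed the filter here. Interstitial cells had 24 of them higher and 0 lower with Mki67 or Top2a, beside 3.47% and 0.141% of all 14170 genes tested. Granulosa cells had 15 higher and 0 lower, beside 3.55% and 0.924%. Mesothelial cells had 10 higher and 0 lower, beside 1.79% and 0.0212%. The median log2 differences of the 47 genes were 2.13, 1.33 and 1.54, against -0.02, -0.07 and 0.00 over all genes, and the mesothelial median was 1.15 with the 5 genes that are at 0 in a group set to the floor of 3 UMIs. DESeq2 called 17, 13 and 8 of them higher and 0 lower.

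**Figure D4:**
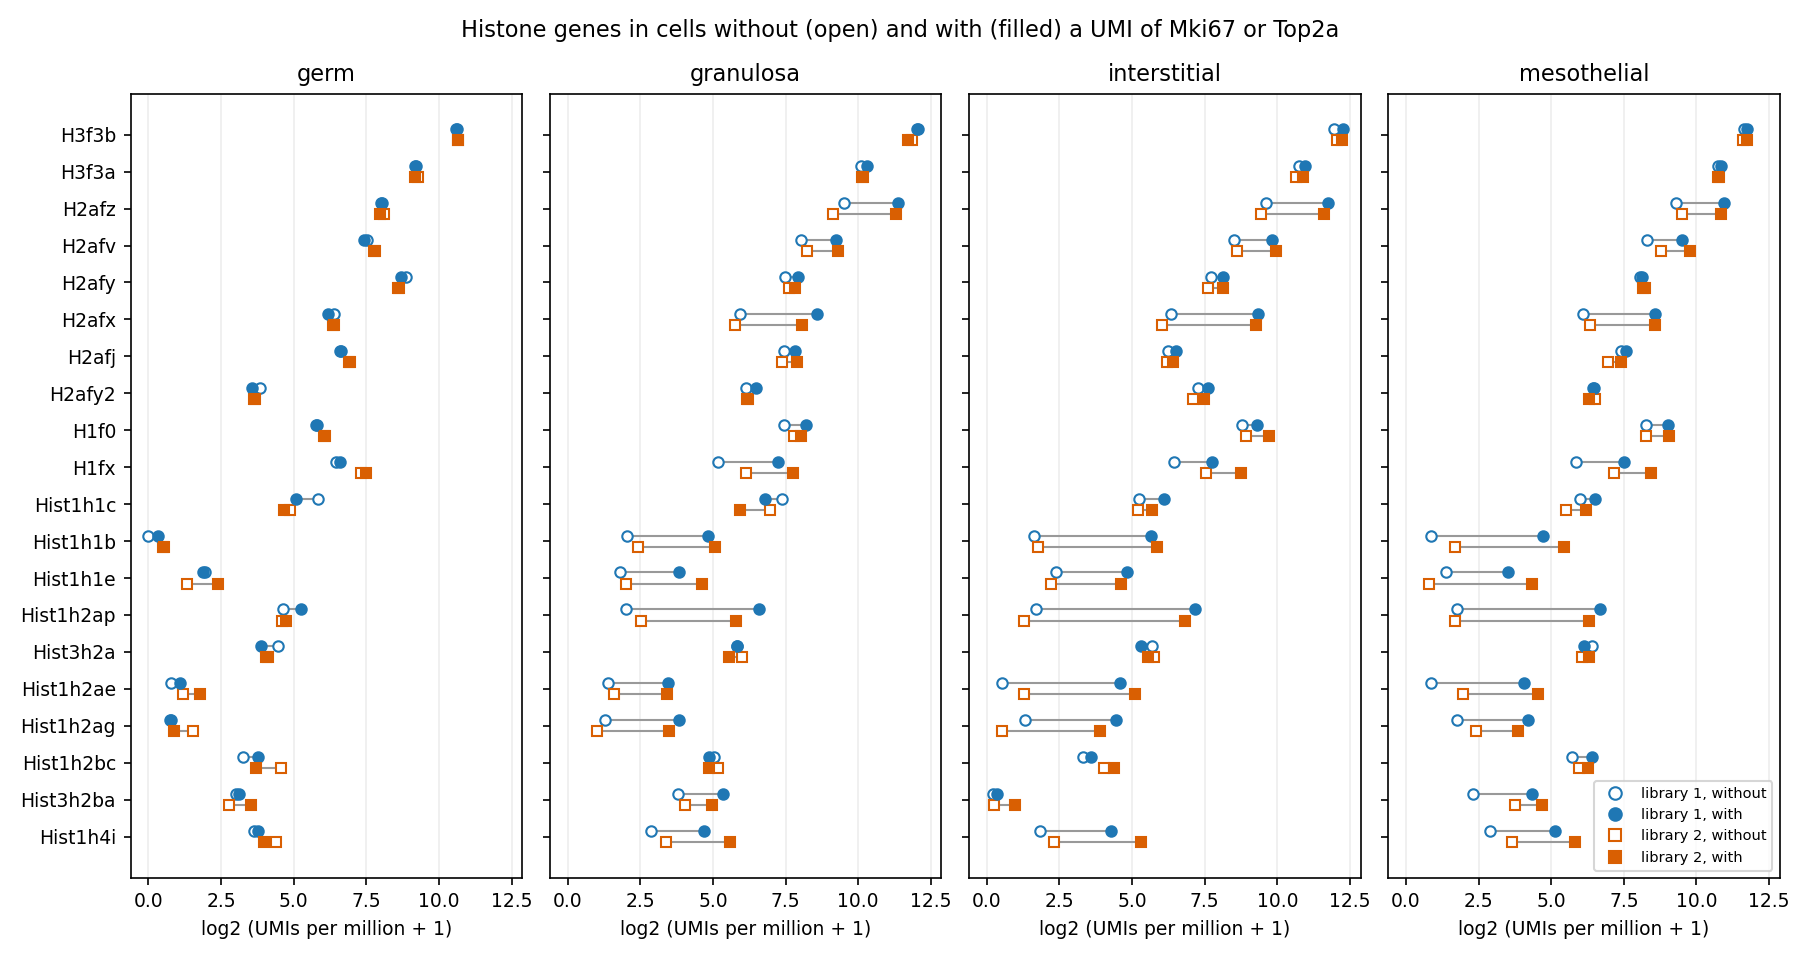
Log2 (CPM + 1) of 20 histone genes in cells without (open) and with (filled) a UMI of Mki67 or Top2a, in each cell type, with library 1 as circles and library 2 as squares. Hist1h2ap, Hist1h1b, H2afx and H2afz lie far apart in the 3 somatic types and close together in germ cells, while H3f3a and H3f3b barely differ anywhere.

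Among the variants, H2afz, H2afx and H2afv were called. H2afz rose from 789 and 699 CPM to 3404 and 3143 CPM in interstitial cells (2.13 ± 0.15, adjusted p = 2.07e-07, edgeR), from 726 and 559 to 2665 and 2538 in granulosa cells (2.01 ± 0.15, adjusted p = 4.99e-07, edgeR) and from 633 and 716 to 1978 and 1821 in mesothelial cells (1.54 ± 0.15, adjusted p = 2.25e-05, edgeR). H2afx, whose protein marks DNA breaks when phosphorylated and whose transcript can end in a stem-loop, rose from 80.8 and 63.6 to 643 and 618 CPM in interstitial cells (3.12 ± 0.19, adjusted p = 3.76e-08, edgeR), by 2.50 ± 0.19 in granulosa cells (adjusted p = 4.69e-07, edgeR) and by 2.40 ± 0.20 in mesothelial cells (adjusted p = 4.36e-06, edgeR). H2afv was called in all 3 types with smaller values, 1.33, 1.13 and 1.15.

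H3f3a and H3f3b, the macroH2A genes, H2afj and H1f0 were not called in any type. H3f3b, for example, was at 3992 and 4262 CPM without and 4882 and 4813 CPM with Mki67 or Top2a in interstitial cells (0.23 ± 0.12, adjusted p = 0.466, edgeR), and at 4319 and 3687 against 4142 and 3353 CPM in granulosa cells (-0.10 ± 0.12, adjusted p = 0.716, edgeR). H1f0 had differences of 0.67 ± 0.19, 0.47 ± 0.19 and 0.81 ± 0.19 in interstitial, granulosa and mesothelial cells, all short of 2-fold. H2afy had 0.47 ± 0.12 in interstitial cells (adjusted p = 0.0383, edgeR), short of it as well. H1fx was higher with Mki67 or Top2a in both libraries of each somatic type (34.9 and 69.0 against 150 and 215 CPM in granulosa cells), but the libraries differed so far from each other that it was not called (1.83 ± 0.56, adjusted p = 0.0654, edgeR). With the library as a block, it was called in all 3 somatic types.

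Among the replicative genes, 21 of 36 tested were called higher in interstitial cells, 12 in granulosa cells and 7 in mesothelial cells. Hist1h2ap rose from 2.26 and 1.46 to 142 and 113 CPM in interstitial cells (6.14 ± 0.34, adjusted p = 1.32e-08, edgeR) and from 3.06 and 4.81 to 94.0 and 54.7 CPM in granulosa cells (4.37 ± 0.31, adjusted p = 2.82e-07, edgeR). In mesothelial cells it rose to 102 and 77.5 CPM (adjusted p = 7.91e-06, edgeR) from 3 UMIs in each library, too few to give the size of the change. Hist1h1b, the H1 gene, rose from 2.11 and 2.37 to 49.0 and 56.4 CPM in interstitial cells (4.53 ± 0.31, adjusted p = 1.39e-07, edgeR), and by 3.04 ± 0.31 in granulosa cells (adjusted p = 1.14e-05, edgeR). It was called in mesothelial cells too (adjusted p = 8.91e-05, edgeR), there from 1 and 3 UMIs without Mki67 or Top2a. Hist1h1a, Hist1h1e, Hist1h2ae and Hist1h4i were also called in all 3 types. Hist1h4i, for example, went from 2.56 and 4.01 to 18.2 and 38.5 CPM in interstitial cells (3.07 ± 0.46, adjusted p = 0.000516, edgeR).

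Hist1h3c, Hist1h3g, Hist1h2bh, Hist1h2ag, Hist1h2ak and Hist1h2bm, core histone genes, were also called in interstitial cells, and Hist1h2af, Hist1h2bk, Hist1h2ag and Hist1h2bj in granulosa cells. Hist1h3c, Hist1h3g, Hist1h2bh and Hist1h2af had at most 3 UMIs in the interstitial cells without Mki67 or Top2a, and the same holds for Hist1h2af in granulosa cells and for Hist1h1a, Hist1h1e and Hist1h2bm in mesothelial cells, so that no size is given for them there. Hist3h2ba was called in granulosa cells (from 13.1 and 15.6 to 39.8 and 30.4 CPM, 1.32 ± 0.30, adjusted p = 0.0145, edgeR) and stayed near 0 in interstitial cells with Mki67 or Top2a (0.263 and 0.983 CPM).

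Several of the replicative genes with the most UMIs were not called. Hist3h2a was at 51.0 and 53.3 CPM without and 38.5 and 45.4 CPM with Mki67 or Top2a in interstitial cells (-0.32 ± 0.16, adjusted p = 0.419, edgeR), and Hist1h2bc was at 8.90 and 15.4 against 11.1 and 19.9 CPM (0.34 ± 0.34, adjusted p = 0.762, edgeR). Hist1h1c went from 37.1 and 35.9 to 66.9 and 50.5 CPM in interstitial cells (0.68 ± 0.28, adjusted p = 0.271, edgeR), and from 164 and 124 to 109 and 60.1 CPM in granulosa cells (-0.74 ± 0.27, adjusted p = 0.129, edgeR). Neither passed the test. The summed replicative level was 3.76-fold and 3.69-fold higher in interstitial cells and 1.60-fold and 1.41-fold higher in granulosa cells with Mki67 or Top2a. The granulosa sum joins unlike classes, since its H1 genes, which include Hist1h1c, had ratios of 0.91 and 0.93. Those of the other classes were 2.76 and 1.75 (H2A), 1.71 and 1.32 (H2B), 3.29 and 3.03 (H3) and 2.60 and 3.16 (H4). The difference between interstitial and granulosa cells was tested gene by gene as an interaction. It called 0 of 47 histone genes with edgeR and 0 with DESeq2 (9 and 7 had an unadjusted p under 0.05), beside 0.0212% higher and 0.00706% lower of all genes. With the library as a block, Hist1h1c was called (1.42, adjusted p = 0.0351, edgeR), beside 0.0635% higher and 0.0494% lower of all genes.

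The promoter of Hist1h1b (H1f5 in RefSeq) is shown for the replicative genes that moved with Mki67 and Top2a in all 3 somatic types, as the 250 bases before its start, chr13:21780626-21780875 on the minus strand of GRCm38.p6, with CCAAT and TATAAA in capitals on either strand.
Hist1h1b: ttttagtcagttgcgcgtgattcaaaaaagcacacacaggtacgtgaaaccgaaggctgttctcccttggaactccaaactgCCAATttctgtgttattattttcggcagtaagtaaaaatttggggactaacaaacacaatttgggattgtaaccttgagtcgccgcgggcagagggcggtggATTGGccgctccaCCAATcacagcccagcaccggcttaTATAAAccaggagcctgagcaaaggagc
It held CCAAT on both strands and TATAAA.

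In germ cells the same split gave no calls. At their depth a single UMI of Mki67 or Top2a does not by itself mark a dividing cell. Of the 47 histone genes, 0 were called in either direction with edgeR, with the library as a block or with DESeq2, beside 0.0141% higher and 0% lower of all genes (edgeR), and 1, 5 and 0 of them had an unadjusted p under 0.05. The median was 0.18, the same as over all genes, and scaling to totals in place of TMM shifted all genes by -0.17. The histone median was 0.13 with the 6 genes that are at 0 in a group set to the floor of 3 UMIs. H2afz was at 258 and 278 CPM without and 260 and 248 with Mki67 or Top2a, H2afx at 83.3 and 79.9 against 70.9 and 82.0, and Hist1h2ap at 24.0 and 23.4 against 37.2 and 25.4. The summed replicative genes were at 161 and 148 CPM against 154 and 139. Depth also set the germ cell groups further apart than those of the other types. A UMI of Mki67 or Top2a was found in 81.7% and 58.2% of germ cells and in 7.66% and 5.07% after thinning, and the median depth was 81286 and 62404 UMIs with one and 19627.5 and 4050 without, over 42 and 259 cells. Whether germ cells differ from somatic cells in this response was not tested.

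**Figure D5:**
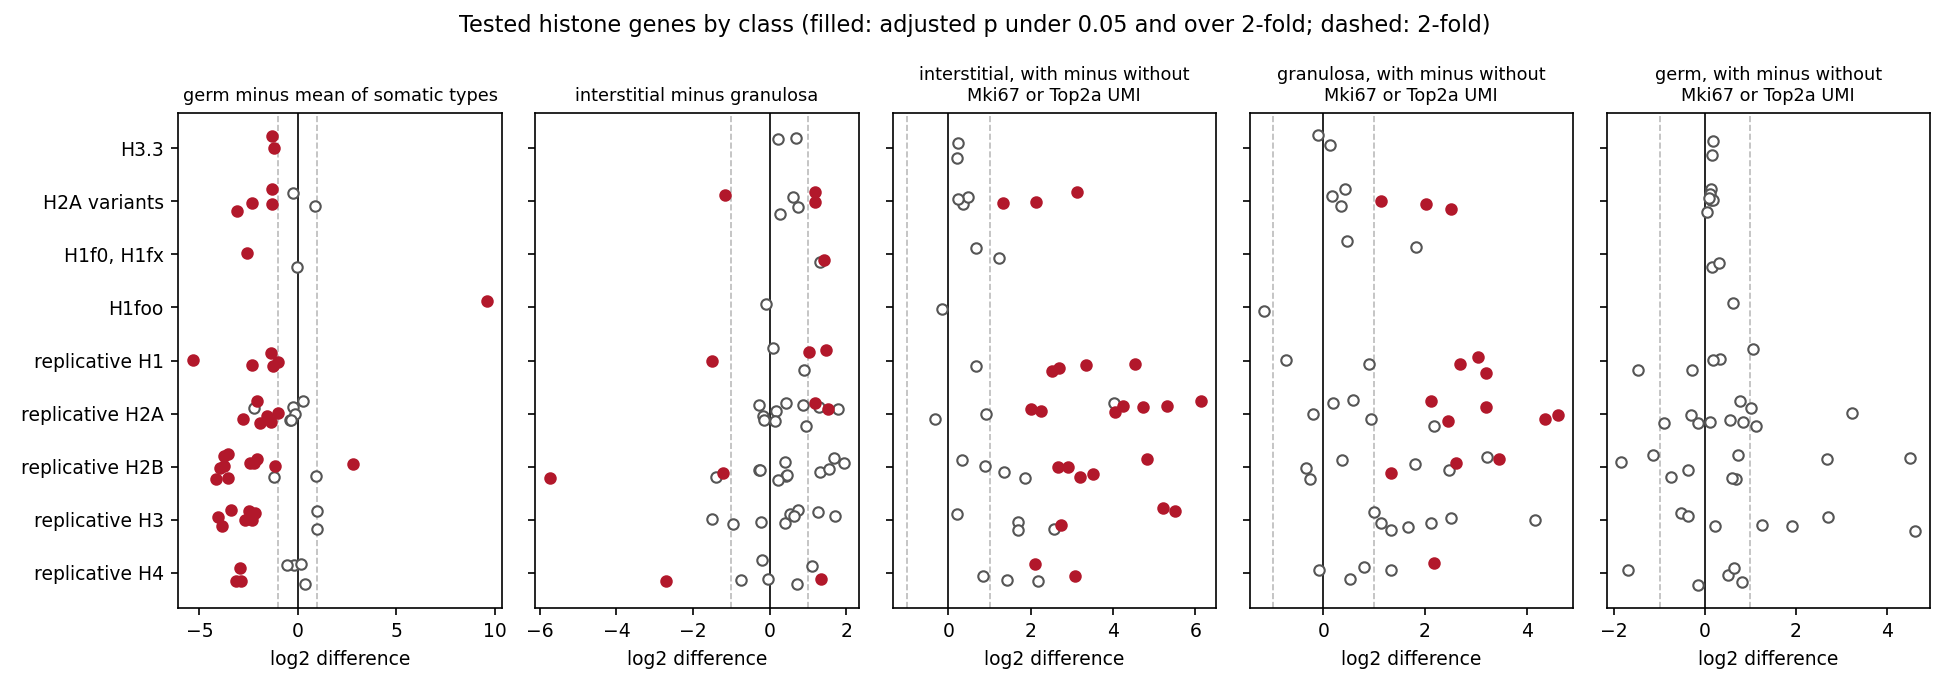
Log2 differences of the tested histone genes by class in 5 comparisons, with filled points for genes past an adjusted p of 0.05 and 2-fold and dashed lines at 2-fold. Filled points lie mostly left of 0 for germ against somatic cells, right of 0 for interstitial and granulosa cells with Mki67 or Top2a, and are missing for germ cells. Open points past the dashed lines, such as H1fx in granulosa cells, did not pass the adjusted p.

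The genes that make, process and deposit histones were counted from lists. Of 13 genes of stem-loop mRNA synthesis and processing, 7 were higher and 0 lower in germ cells than in the somatic mean, among them Zfp473 (5.20 ± 0.31), Sympk (2.27 ± 0.11) and Lsm11 (2.17 ± 0.17), while Slbp, which binds the stem-loop, was level (-0.06 ± 0.12, adjusted p = 0.671, edgeR). The median of the list was 1.11. In cells with Mki67 or Top2a, 3 of the 13 were higher in interstitial cells (Slbp, Npat and Eri1), 1 in granulosa cells (Eri1) and 0 in mesothelial cells. Of 27 histone chaperones and deposition factors, 8 were higher and 2 lower in germ cells, beside 31% and 27.7% of all genes, so that the share of higher ones is near the background. The higher ones included Npm2, the chaperone of the egg (7.53 ± 0.20), and the lower ones Anp32e, which removes H2A.Z (-2.38 ± 0.17). With Mki67 or Top2a, 5, 6 and 4 of the 27 were higher in interstitial, granulosa and mesothelial cells, and Asf1b (4.20 ± 0.24, 3.61 ± 0.24 and 4.28 ± 0.41), Chaf1a, which brings H3 and H4 to the replication fork, and Hjurp, the chaperone of the centromeric H3, were in all 3. Of 20 genes of DNA replication, 15, 20 and 6 were higher in the same order. Between germ cells with and without Mki67 or Top2a, 0 of the 60 genes of the 3 lists were called. Against the somatic mean, 6 of the 20 DNA replication genes were higher and 1 lower in germ cells. These counts stand beside the shares of all genes given above for each comparison.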

How the data were processed

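The authors deposited UMI counts per gene and cell, made with Cell Ranger 3.0.2 on GRCm38 per the labels and not normalized. The labels name version 2 of the Chromium 3′ kit and the methods version 3. Cells were kept at 500 or more genes and up to 10% mitochondrial UMIs (3738 and 4464 of 4094 and 4847, from 54471790 and 59074480 UMIs), and 113 and 132 doublets (Scrublet score over 0.19) were removed. The histone genes, lists and tests were chosen with earlier results of these data known. A cell took the germ, granulosa or interstitial type when that list held at least 2 UMIs, 1 per 10000, and 4 times each other of these lists. Upk3b also had to stay below 2 UMIs or 1 per 10000 in it. Upk3b, at 2 UMIs and 2 per 10000, took precedence unless the germ list passed, a rule changed after cell numbers were seen, because the planned exclusive rule left 4 and 15 mesothelial cells. UMIs summed per library and type, or per type and presence of Mki67 or Top2a, were fitted with edgeR 4.0.16 (filterByExpr, TMM, glmQLFTest) in R 4.3.3, after tests on simulated data. Genes named always were H1foo, H1f0, H1fx, the H2A variants, H3.3 and Hist1h1a to Hist1h1e, with up to 10 called genes per direction and comparison on one side of 2-fold in each library. Genes named outside this rule were chosen after their values were seen. Library deviations correlated between all types by 0.110 to 0.337 over 9451 genes, so the cell types of a library are paired. The main fits had no term for the library, and their p-values leave this pairing out. A library block was added only among the alternatives. Each SE was derived from the test, as the absolute log2 difference divided by the square root of its quasi-likelihood F statistic. Intervals and floors cover counting error only.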

Additional observations from a re-analysis of the deposited data

Results flagged for a closer look

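Hist1h1c (H1.2) went in opposite directions with Mki67 or Top2a in both libraries, from 37.1 and 35.9 to 66.9 and 50.5 CPM in interstitial cells and from 164 and 124 to 109 and 60.1 CPM in granulosa cells. The difference of the log2 differences was 1.41 ± 0.39 (SE, adjusted p = 0.382, edgeR). The adjusted p ran from 0.000457 to 0.888 over the alternatives, and passed the threshold with the library as a block and without the filter on low counts. H3f3b had the same opposite signs, from 3992 and 4262 to 4882 and 4813 CPM in interstitial cells and from 4319 and 3687 to 4142 and 3353 CPM in granulosa cells, with a difference of 0.32 ± 0.17 (adjusted p = 0.837, edgeR). Hist2h2be, an H2B gene, went from 1.66 and 2.09 to 4.48 and 2.75 CPM in interstitial cells and from 6.05 and 8.42 to 4.24 and 7.90 CPM in granulosa cells, with a difference of 1.23 ± 0.80 (adjusted p = 0.887, edgeR). The groups hold 2 libraries each, too few to test for a library that lies far from the others.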

How the results depend on the processing

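Counts of called histone genes under alternatives are given as higher or lower. For germ against somatic cells (2 higher, 38 lower), 4 were higher without the filter on low counts, with a stricter gate, with other marker lists and with the gate as first planned, 5 without the 2-fold threshold, and 1 higher and 11 lower with cells thinned to 2000 UMIs. For interstitial against granulosa cells (8 and 5), thinning left 5 and 3. For mesothelial against granulosa cells (14 and 1), 22 were higher without the filter, 8 with the stricter gate and 5 after thinning, and 2 were lower without the fold threshold and 0 with the stricter gate, other lists or thinning. With Mki67 or Top2a, thinning left 9 of 24 in interstitial, 8 of 15 in granulosa and 4 of 10 in mesothelial cells, where 16 were called without the filter and 4 with Mki67 and Top2a read after thinning. Thinned fits tested 19 or 20 histone genes. The interaction called 3 without the filter. The main gate replaced the planned one after cell numbers were seen, and the gate as first planned was then kept as an alternative. The interaction alternatives were chosen after seeing the data.

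Somatic cells without Mki67 or Top2a gave 5 higher and 16 lower for germ cells, 2 higher and 7 lower for interstitial and 0 higher and 1 lower for mesothelial cells. These fits tested 41 histone genes, fewer than the main fit. Signs were checked only for the genes named by the rule given above. Among these, signs turned for H2afx (0.27) and Hist1h1e (0.57) in germ cells, for Hist1h1b (-0.64), Hist1h2ae (-0.72) and Hist1h2ap (-0.98) in interstitial, and for Hist1h1b (-1.22), Hist1h2ak (-0.37) and Hist1h2ap (-0.65) in mesothelial against granulosa cells. The cause was not tested.

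With the replicate block, the interaction called 1 gene, Hist1h1c. Elsewhere the block lost Hist1h2ai and gained Hist2h3c1 and Hist1h2ab for germ cells, gained H1fx and Hist2h2be in interstitial and H1fx and Hist1h4i in mesothelial against granulosa cells, and with Mki67 or Top2a gained H1fx in the 3 somatic types, Hist1h2ab and Hist1h3i in interstitial, Hist1h3c in granulosa and Hist1h2ag and Hist1h2ak in mesothelial cells. It changed no other call.

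With either library left out there is no test, and genes past 2-fold were counted: 13 to 21 higher and 6 to 7 lower in interstitial against granulosa cells, 25 to 28 and 2 to 4 in mesothelial against granulosa cells, with Mki67 or Top2a 24 to 25 and 0 to 1 in granulosa, 27 to 29 and 0 to 1 in mesothelial and 5 and 1 in germ cells, and 14 to 15 and 0 to 2 for the interaction.

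Mean class levels moved by more than 1 SD with thinning for the replicative genes in interstitial (247 CPM) and mesothelial cells (497), for the H2A variants in germ (1097), granulosa (1964) and interstitial cells (2626) and for H3.3 in germ (2263), interstitial (6199) and mesothelial cells (5324). The stricter gate gave 447 CPM for the replicative genes and 5162 for H3.3 in mesothelial cells, 6136 for H3.3 in interstitial cells and 0.182 for H1foo in mesothelial cells. Other marker lists gave 6141 for H3.3 in interstitial cells, and 1.06 and 0.470 for H1foo in granulosa and mesothelial cells. The gate as first planned gave 255 for the replicative genes and 6095 for H3.3 in interstitial cells, and 2108 for the H2A variants and 0.984 for H1foo in granulosa cells. With 2 libraries, low replicative counts limit what could be called.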
